A study of Mus musculus with 7 samples.

Results

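The genes of MHC class II antigen presentation were examined in the retinal pigment epithelium (RPE) of aged mice with and without LC3b. The set was chosen by name as 7 genes (*H2-Aa*, *H2-Ab1*, *H2-Eb1*, *H2-DMa*, *H2-DMb1*, *Cd74* and *Ciita*) of the 52740 gene identifiers in the table of counts. The rule itself used no values of these genes, but earlier results of these data were known when they were chosen. All 7 passed the filter on low counts that left 16990 genes to test. None of the 7 met the threshold for differential expression in LC3b-/- RPE (at least 1.5-fold, with an edgeR adjusted p under 0.05), whereas all 7 had a higher mean in LC3b-/- than in WT. The classical chains and the invariant chain *Cd74* differed by log2 fold changes of 0.76 to 0.84, *Ciita* by 0.62, and the H2-DM chains by 0.29 and 0.31.

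RNA was sequenced from 4 WT and 3 LC3b-/- mice, all about 24 months old, with 1 library per mouse. WT mice were C57BL6/J and LC3b-/- mice carried the *Map1lc3b* null allele on a B6;129P2 background, both purchased from the same supplier, so that any difference in strain background cannot be told apart from genotype. The WT libraries are called F1, F2, F3 and M1, those of LC3b-/- mice F1, F3 and M, and the letter gives the sex, which leaves 1 male per genotype. The RPE was released from eyecups with hyaluronidase and trypsin after removal of cornea, ciliary body and lens, and the number in the mouse name is not stated to be a litter or batch. A further group number in the sample names is never the same in both genotypes, and its meaning is not stated. The LC3b-/- male has another group number than the LC3b-/- females, whereas all WT mice share a number. Within LC3b-/-, sex thus cannot be told apart from the group number. The genotype field of the knockout samples reads LCb-/-, while their titles name LC3. The targeted gene *Map1lc3b* had 2778 to 4444 counts in the WT libraries and 168 to 332 in the LC3b-/- libraries (115 ± 11.2 against 7.28 ± 0.901 CPM, SD, n = 4 and 3, log2 fold change −3.98, edgeR adjusted p 1.86e-04). CPM are counts per 1000000 counts of a library, with library sizes scaled by TMM.

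Class II molecules are heterodimers of an alpha and a beta chain that display peptides from endosomes to CD4+ T cells. In the endoplasmic reticulum the chains bind the invariant chain, encoded by *Cd74*, which blocks the peptide groove and steers the complex to endosomes. Cathepsins cut the invariant chain down to a short fragment, CLIP, which H2-DM exchanges for antigenic peptide, while H2-O opposes H2-DM. The coactivator CIITA, encoded by *Ciita*, controls transcription of the class II genes and is itself induced by interferon gamma. Class II is constitutive in dendritic cells, B cells and many macrophages and can be induced in other cells, RPE cells among them. LC3b is one of the ubiquitin-like proteins attached to autophagosomes and, in LC3-associated phagocytosis, to single-membrane phagosomes, a route by which the RPE degrades photoreceptor outer segments.

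CIITA does not bind DNA itself but is held by factors on a conserved module of the class II promoters, in which an X box, bound by the RFX complex, precedes a Y box, bound by NF-Y. RefSeq promoter windows (mouse build GRCm38.p6, 250 bases before to 50 after the start site) were matched for 4 of the 7 members (*H2-Aa*, *H2-Eb1*, *H2-DMa* and *H2-DMb1*). Windows of *H2-Ab1*, *Cd74* and *Ciita* were not analysed here. The letters GNAAC, from the X box, and TGATTGG, from the Y box, were searched on both strands, with the pair counted where TGATTGG followed on the same strand after a gap of 20 to 35 bases. These letters and gap limits were set after the windows had been seen. The windows below are shown because they hold the pair, in the sense of the gene from 5′ to 3′, with the matches in capitals. The *H2-Aa* window is chr17:34287774-34288073 on the minus strand, the *H2-Eb1* window chr17:34305617-34305916 on the plus strand, and the *H2-DMb1* window chr17:34152941-34153240 on the plus strand.
H2-Aa: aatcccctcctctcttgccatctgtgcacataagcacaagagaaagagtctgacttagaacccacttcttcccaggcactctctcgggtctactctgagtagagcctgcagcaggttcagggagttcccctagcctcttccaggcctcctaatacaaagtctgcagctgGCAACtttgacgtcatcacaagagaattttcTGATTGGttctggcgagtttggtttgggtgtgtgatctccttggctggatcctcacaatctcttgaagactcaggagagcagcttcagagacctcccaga
H2-Eb1: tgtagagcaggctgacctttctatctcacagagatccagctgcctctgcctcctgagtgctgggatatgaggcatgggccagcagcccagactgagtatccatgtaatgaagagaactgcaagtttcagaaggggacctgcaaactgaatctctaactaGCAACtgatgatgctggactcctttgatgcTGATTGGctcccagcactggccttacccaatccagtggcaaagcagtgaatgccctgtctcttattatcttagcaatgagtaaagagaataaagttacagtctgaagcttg
H2-DMb1: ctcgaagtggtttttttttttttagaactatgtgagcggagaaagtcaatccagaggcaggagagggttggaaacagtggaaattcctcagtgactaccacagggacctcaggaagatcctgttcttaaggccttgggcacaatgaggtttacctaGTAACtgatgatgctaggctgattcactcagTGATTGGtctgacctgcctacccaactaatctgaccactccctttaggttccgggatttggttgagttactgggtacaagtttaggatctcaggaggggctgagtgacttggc

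The Y box letters started 50 bases before the start site in *H2-Aa*, 61 in *H2-Eb1* and 63 in *H2-DMb1*, and the gap from GNAAC was 26, 25 and 26 bases. GNAAC alone was in 84.8% of all 32851 windows and says little by itself. TGATTGG was in 7.82% of windows, and the pair in 140 windows, which is 0.426% of all. Neither of the 2 windows of *H2-DMa* held TGATTGG. Whether either window lies at the start of its canonical transcript was not examined, so this does not show that the gene lacks the pair. Among the other class II chains with a window, *H2-Eb2*, *H2-Oa* and *H2-Ob* held the pair, with gaps of 25, 26 and 23 bases. *H2-DMb2* held TGATTGG without GNAAC within the gap limits. The stretches of 60 bases that end 8 bases after the Y box letters are set below.
H2-Eb2: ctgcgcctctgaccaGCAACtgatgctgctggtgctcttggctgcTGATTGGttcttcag
H2-Oa: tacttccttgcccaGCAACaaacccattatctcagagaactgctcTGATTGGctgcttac
H2-Ob: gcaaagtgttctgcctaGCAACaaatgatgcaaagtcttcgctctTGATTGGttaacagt
H2-DMb2: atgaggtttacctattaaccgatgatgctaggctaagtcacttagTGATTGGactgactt

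The pair was thus present in 6 of the 8 class II chain genes with a window, where the windows of *H2-DMa* may not be those of its canonical transcript. Genes with almost no counts in these libraries are among the 6, so the match is a description of sequence and not of activity.

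Levels of different genes were compared as CPM per kb of the canonical transcript. In WT RPE, *Cd74* was the highest member at 60.4 ± 24.7 CPM per kb (SD, n = 4), followed by *H2-Ab1* at 34.8 ± 15.2, *H2-Aa* at 34.5 ± 16.7 and *H2-Eb1* at 21.6 ± 10.4. *H2-DMb1* had 13.8 ± 2.03 CPM per kb and its partner *H2-DMa* 3.49 ± 1.47. *Ciita*, a regulator, had 0.178 ± 0.128. The WT ranges of neighbours in this order overlapped from *Cd74* down to *H2-DMb1*, whereas *H2-DMb1*, *H2-DMa* and *Ciita* were separated from each other. Within every library, however, *Cd74* exceeded *H2-Ab1*, with a ratio of their CPM between 1.89 and 2.33.

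The remaining class II chains were low or absent. *H2-Ea*, the alpha chain that would pair with H2-Eb1, had 0 counts in all 7 libraries, which allows up to 0.0842 to 0.122 CPM per library at a limit of 3 counts, a limit that covers counting error only. C57BL/6 mice are known to lack *H2-Ea* expression owing to a deletion in its promoter. *H2-Eb2* had 1 to 10 counts per library and was not tested. *H2-Oa* and *H2-Ob*, the subunits of the H2-DM inhibitor H2-O, stood at 0.481 ± 0.355 and 0.478 ± 0.360 CPM per kb in WT, and *H2-DMb2*, the second H2-DM beta gene, at 0.509 ± 0.327.

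**Figure D1:**
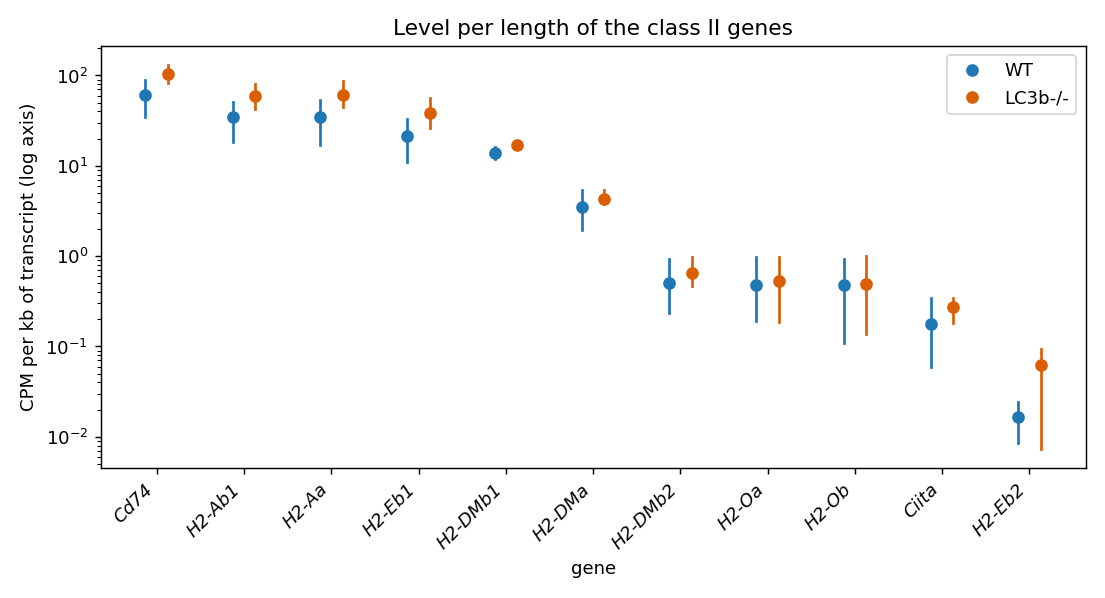
Level of the class II genes per length, in CPM per kb of canonical transcript on a log axis, as group mean (points) and lowest to highest library (lines) for 4 WT and 3 LC3b-/- mice. *Cd74* leads at a WT mean of 60.4, *Ciita* stands at 0.178, and *H2-Ea*, with 0 counts, is left out.

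Among the peptide-binding chains, *H2-Aa* (GRCm39 chr17:34493404-34506798, minus strand) encodes the I-A alpha chain. *H2-Aa* had 60.0 CPM in WT F1, 49.1 in F2, 19.3 in F3 and 27.4 in M1, against 60.5 CPM in LC3b-/- F1, 50.2 in F3 and 97.1 in M. WT F1 and F2 lay at the level of both LC3b-/- females, WT F3 and M1 were low, and LC3b-/- M was the highest library. The means were 39.0 ± 18.9 CPM in WT and 69.3 ± 24.6 in LC3b-/- (SD, n = 4 and 3), with a log2 fold change of 0.83 (SE 0.41, 95% interval −0.13 to 1.79, edgeR quasi-likelihood adjusted p 0.261).

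*H2-Ab1* (chr17:34476663-34488393, plus strand), the I-A beta chain, had 62.0, 53.0, 22.0 and 31.8 CPM in the WT libraries in the same order and 66.1, 51.3 and 97.5 CPM in the LC3b-/- libraries. The order of the libraries was that of its partner chain except that LC3b-/- F3 lay just below WT F2. The log2 fold change was 0.76 (SE 0.38, 95% interval −0.12 to 1.65, edgeR adjusted p 0.261). *H2-Eb1* (chr17:34504236-34535648, plus strand), the I-E beta chain, had 55.5, 47.6, 18.6 and 25.1 CPM in WT and 56.6, 44.9 and 95.5 CPM in LC3b-/-. Here too the groups overlapped, and the log2 fold change was 0.84 (SE 0.42, 95% interval −0.15 to 1.83, edgeR adjusted p 0.268).

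The 3 chains kept nearly fixed proportions in all libraries. *H2-Aa* was 0.860 to 0.996 of the CPM of *H2-Ab1*, and *H2-Eb1* was 0.789 to 0.980 of it, a 1.24-fold range. The levels themselves spanned 5.03-fold for *H2-Aa*, 4.43-fold for *H2-Ab1* and 5.13-fold for *H2-Eb1* across the same 7 libraries. *H2-Aa* and *H2-Eb1* overlap on opposite strands and share 118 annotated exon bases, none of them in the canonical transcript of either gene.

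*Cd74* encodes the invariant chain, which is also known as a receptor for the cytokine MIF. *Cd74* had 129, 100.1, 49.4 and 67.0 CPM in the WT libraries, again in the order F1, F2, F3 and M1, and 136, 119.5 and 186 CPM in LC3b-/- F1, F3 and M. Of the 4 WT libraries, only WT F1 reached the LC3b-/- range. The means were 86.4 ± 35.4 and 147 ± 34.8 CPM, and the log2 fold change was 0.77 (SE 0.33, 95% interval −0.00 to 1.54), with the lowest unadjusted p among the 7 genes, 0.0505 (edgeR adjusted p 0.209).

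The H2-DM heterodimer catalyses peptide exchange. *H2-DMa* (chr17:34338515-34358958, plus strand) had 6.23, 4.27, 2.25 and 3.31 CPM in WT and 4.31, 4.36 and 6.29 CPM in LC3b-/-, so that the WT values spanned nearly the whole LC3b-/- range (log2 fold change 0.31, SE 0.37, 95% interval −0.54 to 1.165, edgeR adjusted p 0.632). *H2-DMb1* (chr17:34372046-34379204, plus strand) had 22.9, 17.7, 20.4 and 16.5 CPM in WT and 23.2, 21.5 and 26.5 CPM in LC3b-/-. It was the steadiest member, with a 1.60-fold range over all libraries, and the only one for which WT F3 was not the lowest library. Its log2 fold change was 0.29 (SE 0.15, 95% interval −0.06 to 0.65, edgeR adjusted p 0.280).

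The subunits of H2-DM did not keep a fixed proportion. *H2-DMb1* had 3.67 to 9.07 times the CPM of *H2-DMa*, with the highest ratio in WT F3, and it ranged from 0.272 to 0.927 of *H2-Ab1*, again highest in WT F3. The transcripts of *H2-DMb1* and *H2-DMb2* were 95.7% identical over 1081 bases, so the authors' counting could split reads between them. With the counts of both genes summed the log2 fold change was 0.30. *H2-DMa* overlaps *Brd2* on the opposite strand, a gene with 4912 to 8856 counts per library. The genes share 510 annotated exon bases, none of them in the canonical transcript of *H2-DMa*. Whether the authors' counting used strand is not given in the sources used here.

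*Ciita* (GRCm39 chr16:10297923-10347694, plus strand) is the least abundant member. It had 88 counts in WT F1, 38 in F2, 12 in F3 and 19 in M1, against 34, 88 and 88 counts in the LC3b-/- libraries F1, F3 and M, which is 2.58, 1.57, 0.449 and 0.730 CPM against 1.37, 2.21 and 2.60 CPM. WT F1 lay beside the highest LC3b-/- library, and WT F3 and M1 were the lowest. The log2 fold change was 0.62 with a wide interval (SE 0.60, 95% interval −0.78 to 2.03, edgeR adjusted p 0.554). Its canonical transcript shares 412 of 7483 bases with exons of *Dexi* on the opposite strand, a gene with 339 to 647 counts per library.

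**Figure D2:**
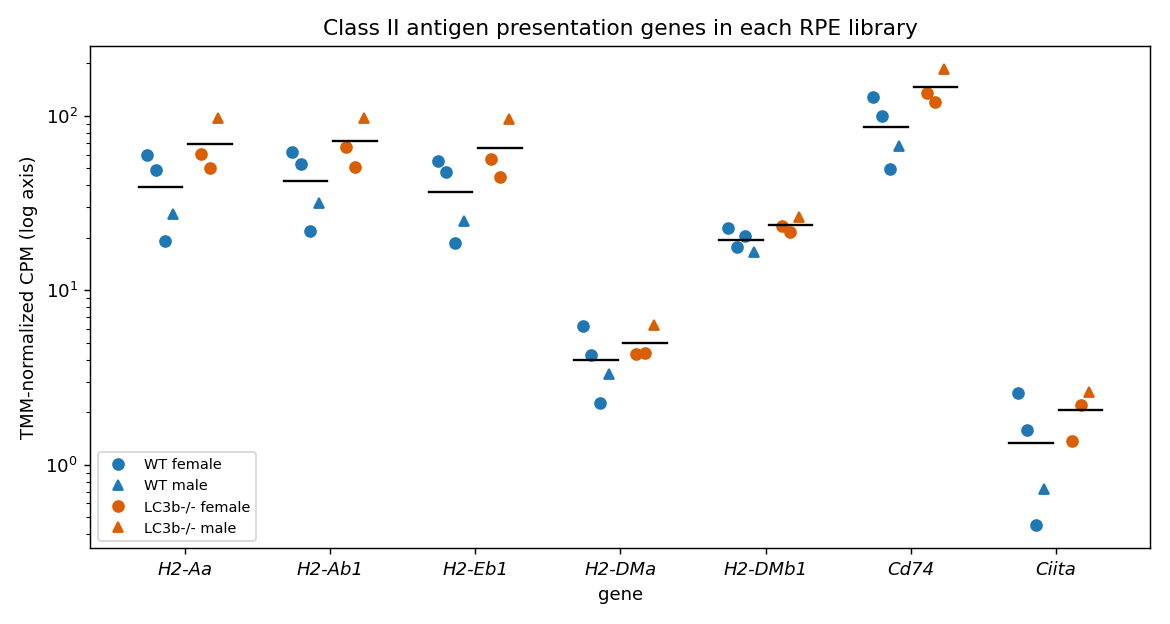
TMM-normalized CPM of the 7 class II genes on a log axis, 1 point per library (circles female, triangles male) with the group mean as a bar, for 4 WT (blue) and 3 LC3b-/- (orange) mice. The groups overlap for every gene, and the LC3b-/- male is the highest library for all 7, such as 186 CPM for *Cd74*.

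Over the 7 genes, 0 were called by edgeR (background 0.235% of all 16990 genes tested, 40 genes) and 0 had an unadjusted p under 0.05 (background 24.1%). In 0 of 7 did the WT and LC3b-/- libraries fail to overlap (background 22.3%). DESeq2 also called 0 of 7 (background 10.8%), and 1 of them, *Cd74*, had an unadjusted p under 0.05 with it. The median log2 fold change of the 7 genes was 0.76, and that of all genes tested was 0.01. The genes share libraries and vary together, so the 7 differences are not independent observations. In exact two-sided permutation tests over the 35 assignments of 7 libraries to the groups, p was 0.114 for *Cd74* and *H2-DMb1*, 0.171 for *H2-Aa* and *H2-Ab1*, 0.229 for *H2-Eb1*, 0.314 for *Ciita* and 0.371 for *H2-DMa*, where the smallest p this design allows is 0.0286. The intervals leave room for both no difference and more than a doubling of the classical chains.

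The difference in means was spread unevenly over the libraries. LC3b-/- M was the highest library for all 7 genes, and WT F3 the lowest for 6. Among males, the single LC3b-/- library had 1.60 times (*H2-DMb1*) to 3.80 times (*H2-Eb1*) the CPM of the single WT library. That LC3b-/- male is the only mouse of its group number. Among females, the LC3b-/- mean was 1.02 times (*H2-DMa*) to 1.38 times (*Cd74*) the WT mean. With females only, the log2 fold change was 0.46 for *Cd74*, 0.37 for *H2-Aa*, 0.36 for *H2-Ab1* and 0.32 for *H2-Eb1*, with 0.02 for *H2-DMa*. A genotype by sex interaction, fitted after the values had been seen and resting on 1 male per group, had unadjusted p of 0.112 to 0.336 and an edgeR adjusted p of 0.998 for each of the 7 genes.

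Leaving out WT F1 raised the log2 fold change of *H2-Aa* to 1.12, of *H2-Ab1* to 1.01 and of *Cd74* to 1.03, and 5 of the 7 genes then had an unadjusted p under 0.05. Their edgeR adjusted p without WT F1 ranged from 0.0948 for *Cd74* to 0.153 for *H2-Eb1*, while over all alternatives tried that of *Cd74* ranged from 0.0948 to 0.559 and that of *H2-Eb1* from 0.153 to 0.738. Leaving out LC3b-/- M lowered the log2 fold change of *H2-Aa* to 0.50, of *H2-Ab1* to 0.47 and of *Cd74* to 0.56. Without WT F3 the same genes stood at 0.58, 0.53 and 0.56.

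**Figure D3:**
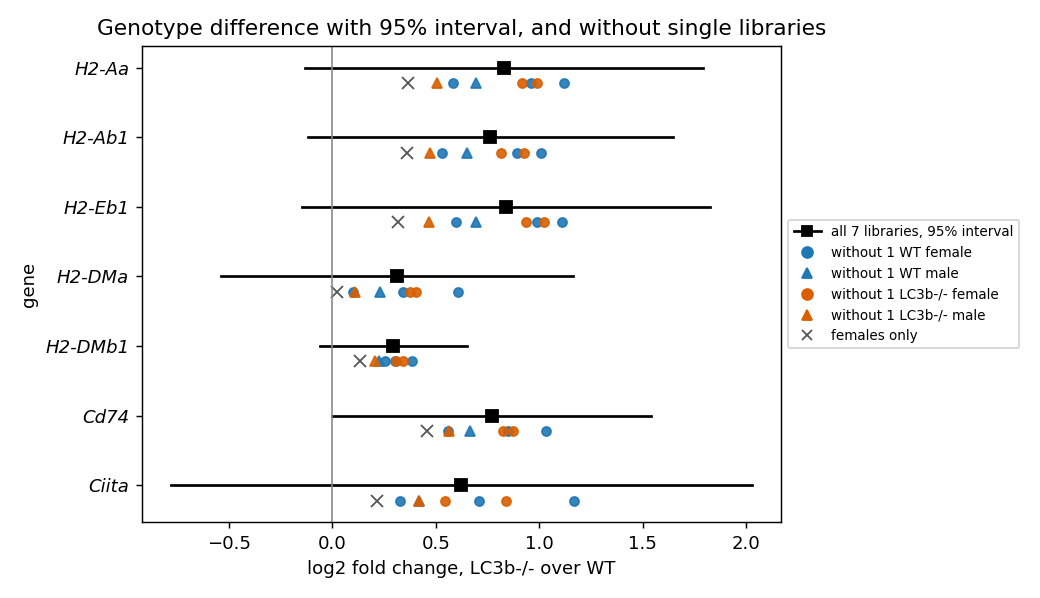
Log2 fold change of LC3b-/- over WT for the 7 class II genes (squares, with the 95% interval of the edgeR fit as a line), and below each the value without 1 library at a time (circles for females, triangles for males, blue for WT and orange for LC3b-/-) and with females only (crosses). All points lie above 0, and every interval includes 0, that of *Cd74* by the least.

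Bulk RNA does not tell which cells the class II transcripts came from, and a larger number of class II expressing cells cannot be told apart from more RNA per cell. Marker genes of the labelled tissue were high, with *Rpe65* at 2679 ± 870 CPM and *Ttr* at 13571 ± 3190 in WT (SD, n = 4), except for *Best1* at 1.27 ± 0.352. The 10 RPE markers summed to 20992 to 32491 CPM in WT and 9733 to 20154 in LC3b-/-, without overlap, and 5 of the 10 were lower at an unadjusted p under 0.05 (10.6% of all genes tested). edgeR called 0 of the 10, and DESeq2 called 4 as lower (3.66% of all genes tested). Markers of other cells were present in all libraries, and edgeR called 0 of the 76 markers tested over the 10 lists, against 15 with DESeq2 (19.7%, background 10.8%), 11 higher and 4 lower. Epithelial keratins and *Trp63*, markers of the ocular surface, summed to 8.87 to 2389 CPM in WT and 3224 to 22192 in LC3b-/-, and photoreceptor markers to 22.5 to 18651 in WT and 39.1 to 6461 in LC3b-/-.

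Leukocyte markers moved across the libraries with class II. *Ptprc*, *Cd53*, *Laptm5* and *Coro1a* (4 of 4 tested, 4 higher on average, 0 called) summed to 100.1, 83.9, 33.8 and 54.3 CPM in the 4 WT libraries and to 92.4, 95.9 and 139 in the 3 LC3b-/- libraries, in the order used above. WT F3 was the lowest and LC3b-/- M the highest, as for most class II genes. The ratio of *H2-Ab1* to this sum was 0.535 to 0.715, a 1.34-fold range against 4.43-fold for the level. That of *Cd74* was 1.19 to 1.47, a 1.23-fold range against 3.77-fold for the level.

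Relative to the leukocyte sum, an alternative added after the values had been seen, the mean log2 difference between LC3b-/- and WT was 0.05 for *H2-Ab1*, 0.14 for *H2-Aa*, 0.13 for *H2-Eb1*, 0.06 for *Cd74* and 0.11 for *Ciita*. It was −0.39 for *H2-DMa* and −0.48 for *H2-DMb1*, opposite in sign to the differences in CPM. None of the 7 passed an exact two-sided permutation test, with p of 0.0571 for *H2-DMa* and 0.257 to 0.800 for the others (Benjamini-Hochberg adjusted over the 7, 0.400 to 0.800). *H2-DMb1* had 0.602 of the leukocyte sum in WT F3 and 0.190 to 0.305 in the other 6 libraries.

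Dendritic cell markers (8 of 10 tested, 8 higher on average) summed to 11.0 to 29.7 CPM in WT and 32.5 to 65.9 in LC3b-/-, without overlap. edgeR called 0 of them, and DESeq2 called 2 as higher (7.12% of all genes tested), *Itgax* and *Batf3*. *Itgax*, which macrophages also express, made up much of this sum at 6.85 ± 3.79 and 24.8 ± 10.6 CPM. *Batf3* was low but did not overlap between the groups (0.602 ± 0.179 and 2.03 ± 0.894 CPM). *Clec9a*, a marker of cross-presenting dendritic cells, was also low (0.203 and 0.807 CPM). Macrophage and microglia markers (14 of 14 tested) summed to 599 to 799 CPM in WT and 679 to 1397 in LC3b-/-. On average 6 were higher and 8 lower, and edgeR called 0. DESeq2 called 3 as higher (7.12% of all genes tested) and 0 as lower (3.66% of all genes tested). Of the 14, *Lyz2*, the lysozyme of myeloid cells, differed most in CPM, at 240.8 ± 49.2 against 559 ± 265 CPM. Without *Lyz2* the other 13 summed to 399 to 597 CPM in WT (498 ± 83.9) and 349 to 548 in LC3b-/- (444 ± 99.5). *Itgam* was at 10.3 ± 5.34 against 51.2 ± 28.5 CPM, but *Csf1r*, the receptor of a macrophage growth factor, at 266 ± 51.4 against 164 ± 85.5 CPM (edgeR adjusted p 0.262). By group mean, *Csf1r* was the largest part of the sum without *Lyz2* in both genotypes. With *Csf1r* left out as well, the mean sum of the rest was higher in LC3b-/- than in WT, and the libraries of the groups overlapped.

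B cell markers (5 of 6 tested, 2 higher and 3 lower on average) summed to 2.54 to 8.63 CPM in WT and 9.25 to 28.3 in LC3b-/-. These sums did not overlap and came mostly from *Jchain*, which plasma cells express. edgeR called 0 of them, and DESeq2 called 1, *Jchain*, as higher (7.12% of all genes tested). *Ms4a1* was near 0 in both groups (0.100 and 0.0331 CPM). T cell markers (6 of 6 tested) summed to 2.10 to 9.83 CPM in WT and 3.91 to 10.8 in LC3b-/-.

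Non-leukocyte markers moved as well. Endothelial markers summed to 197 to 633 CPM in WT and 770 to 823 in LC3b-/-, without overlap. Fibroblast markers summed to 272 to 1161 CPM in WT and 656 to 1569 in LC3b-/-, with WT F3 lowest and LC3b-/- M highest as for class II, and the ratio of *H2-Ab1* to the fibroblast sum was 0.0533 to 0.0890, a 1.67-fold range. The part of any of these cells in the class II values was not tested.

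**Figure D4:**
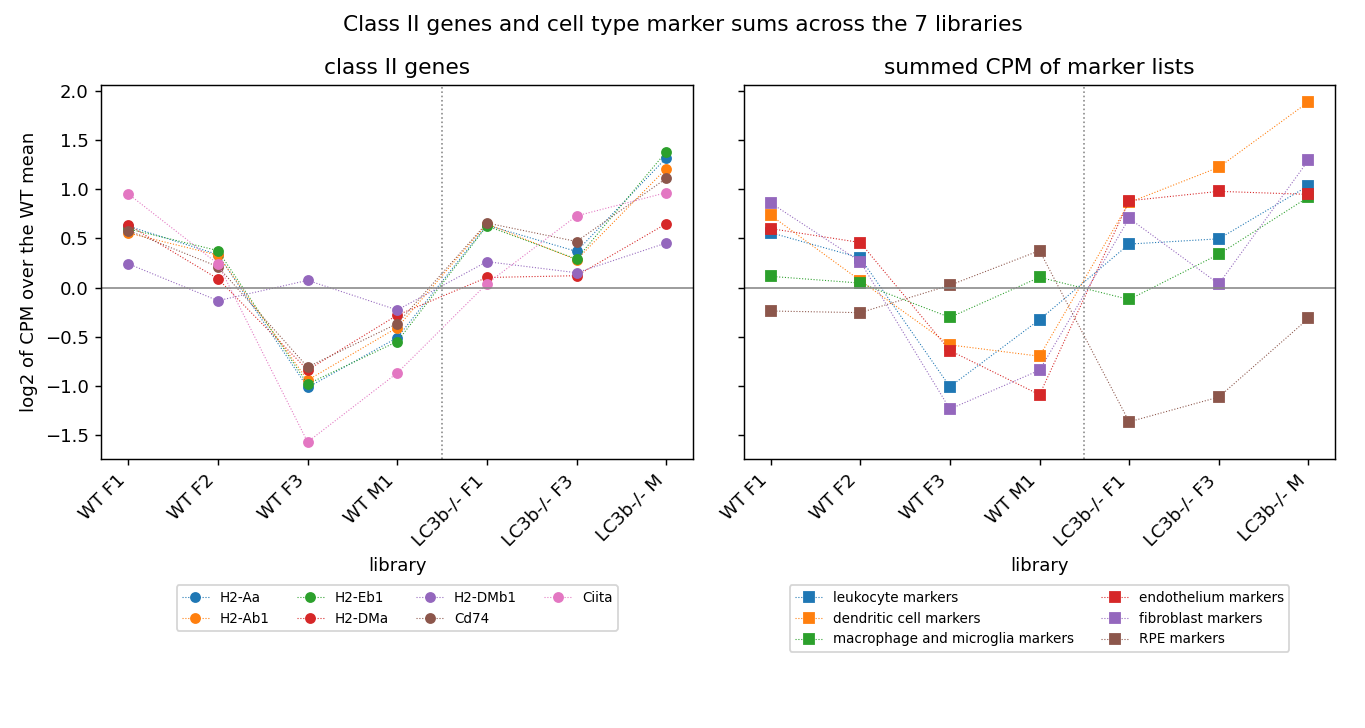
Log2 of the CPM of each class II gene (left) and of the summed CPM of 6 marker lists (right) over the mean of the 4 WT libraries, for each of the 7 libraries, with thin dotted lines that only join the points of a gene or list. *H2-Aa*, *H2-Ab1*, *H2-Eb1* and *Cd74* lie close together in every library, *H2-DMb1* stays flattest, and the leukocyte and fibroblast sums are lowest in WT F3 and highest in LC3b-/- M, while the RPE sum is lowest in LC3b-/- F1.

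The genes most like the 7 in pattern were ranked by their mean Pearson r of log2 CPM with the members over the 7 libraries, outside the set. The 10 highest were *Bgn*, *Trim47*, *C1s1*, *C1ra*, *Plpp3*, *Gadd45g*, *Irf8*, *Svep1*, *Fndc1* and *Cebpb*, with mean r of 0.933 to 0.936. Among them are *Bgn*, a matrix proteoglycan, *C1s1* and *C1ra*, proteases of the classical complement pathway, and *Irf8*, a transcription factor of myeloid and B cells. *Bgn* averaged 220.3 CPM in WT and 400.2 in LC3b-/-, and *Irf8* 17.7 and 30.5. With 7 libraries that share sample composition, this is a description only.

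The wider class II pathway was followed in 46 other genes, of which 42 were tested. Of these 31 were higher and 11 lower in LC3b-/- on average (73.8% higher, against 51.2% of all genes tested), with a median log2 fold change of 0.27, and 0 were called by edgeR. Without adjustment, 9 had p under 0.05, all of them higher (21.4% of the 42, where 13.5% of all genes tested had such a p and were higher), and 0 were lower with such a p (10.6% of all genes tested). The groups did not overlap for 8, all higher (19.0%, background 12% higher and 22.3% in either direction). DESeq2 called 5, all higher (11.9%, background 7.12% higher and 10.8% in either direction), *Ifngr1*, *Ifngr2*, *Jak2*, *Ctsh* and *Icosl*. In either direction, 24.1% of all genes tested had an unadjusted edgeR p under 0.05. Against the either-direction background, the shares of the 42 were thus lower for unadjusted p and for lack of overlap. The share called by DESeq2 was close to it.

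Among 9 genes of the interferon gamma axis, the ligand *Ifng* was near 0 and not tested (0.112 CPM in WT and 0.0931 in LC3b-/-), and 7 of 8 tested were higher on average. *Ifngr2*, the signalling chain of the receptor, had 18.2, 13.3, 13.6 and 13.8 CPM in WT and 30.5, 29.6 and 25.1 in LC3b-/-. All 3 LC3b-/- libraries lay above all WT libraries (14.7 ± 2.33 against 28.4 ± 2.87 CPM, log2 fold change 0.95, SE 0.15, edgeR adjusted p 0.0688). *Ifngr1*, the ligand-binding chain, was at 28.1 ± 7.42 against 52.1 ± 10.3 CPM (log2 fold change 0.89, SE 0.23, edgeR adjusted p 0.0988).

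The kinases bound to these receptors had smaller differences, *Jak2* with a log2 fold change of 0.69 (SE 0.16, edgeR adjusted p 0.0951) and *Jak1* of 0.42 (SE 0.14, adjusted p 0.140). Of 7 transcription genes that bind the class II promoter, 3 were higher and 4 lower, with *Rfx5*, a subunit of the X box complex, at 13.6 ± 0.973 against 15.1 ± 1.70 CPM (log2 fold change 0.15, edgeR adjusted p 0.540). *Creb1*, which binds beside RFX, was at 27.1 ± 1.77 against 32.2 ± 1.32 CPM without overlap (log2 fold change 0.25, edgeR adjusted p 0.203).

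Among 9 genes of endosomal processing, 8 were higher on average and 3 had an unadjusted p under 0.05. *Ctss*, the cathepsin that makes the last cuts in the invariant chain, had 125, 99.8, 54.3 and 89.0 CPM in WT and 109, 178 and 261 in LC3b-/-. Here the groups overlapped, with WT F3 lowest and LC3b-/- M highest as for the class II chains (log2 fold change 0.99, SE 0.35, edgeR adjusted p 0.157). *Ctsh*, an aminopeptidase of the same family, had 58.2, 52.5, 38.6 and 39.7 CPM in WT and 121, 82.5 and 72.8 in LC3b-/-, without overlap and with LC3b-/- F1 highest (log2 fold change 0.96, SE 0.22, edgeR adjusted p 0.0951). *Ifi30*, the thiol reductase GILT that opens disulfide bonds of antigens, was at 18.8 ± 2.71 against 25.8 ± 2.40 CPM (log2 fold change 0.46, SE 0.15, edgeR adjusted p 0.134).

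The remaining lists held little. Of 6 genes of class II turnover and sorting, 1 was higher and 5 lower on average, with 0 at an unadjusted p under 0.05. All 9 tested genes of costimulation and T cell contact (of 10) were higher on average, with 1 at an unadjusted p under 0.05. This was *Icosl*, the ligand of ICOS, with 11.7, 5.88, 4.57 and 5.61 CPM in WT and 19.5, 16.8 and 14.0 in LC3b-/-, so that WT F1 stood above the other WT libraries but below all LC3b-/- libraries (log2 fold change 1.27, SE 0.33, edgeR adjusted p 0.103). Of the other class II chains, 3 of 5 were tested and all were higher on average, among them *H2-DMb2* at 0.745 ± 0.478 against 0.953 ± 0.405 CPM (log2 fold change 0.35, SE 0.60, edgeR adjusted p 0.749).

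**Figure D5:**
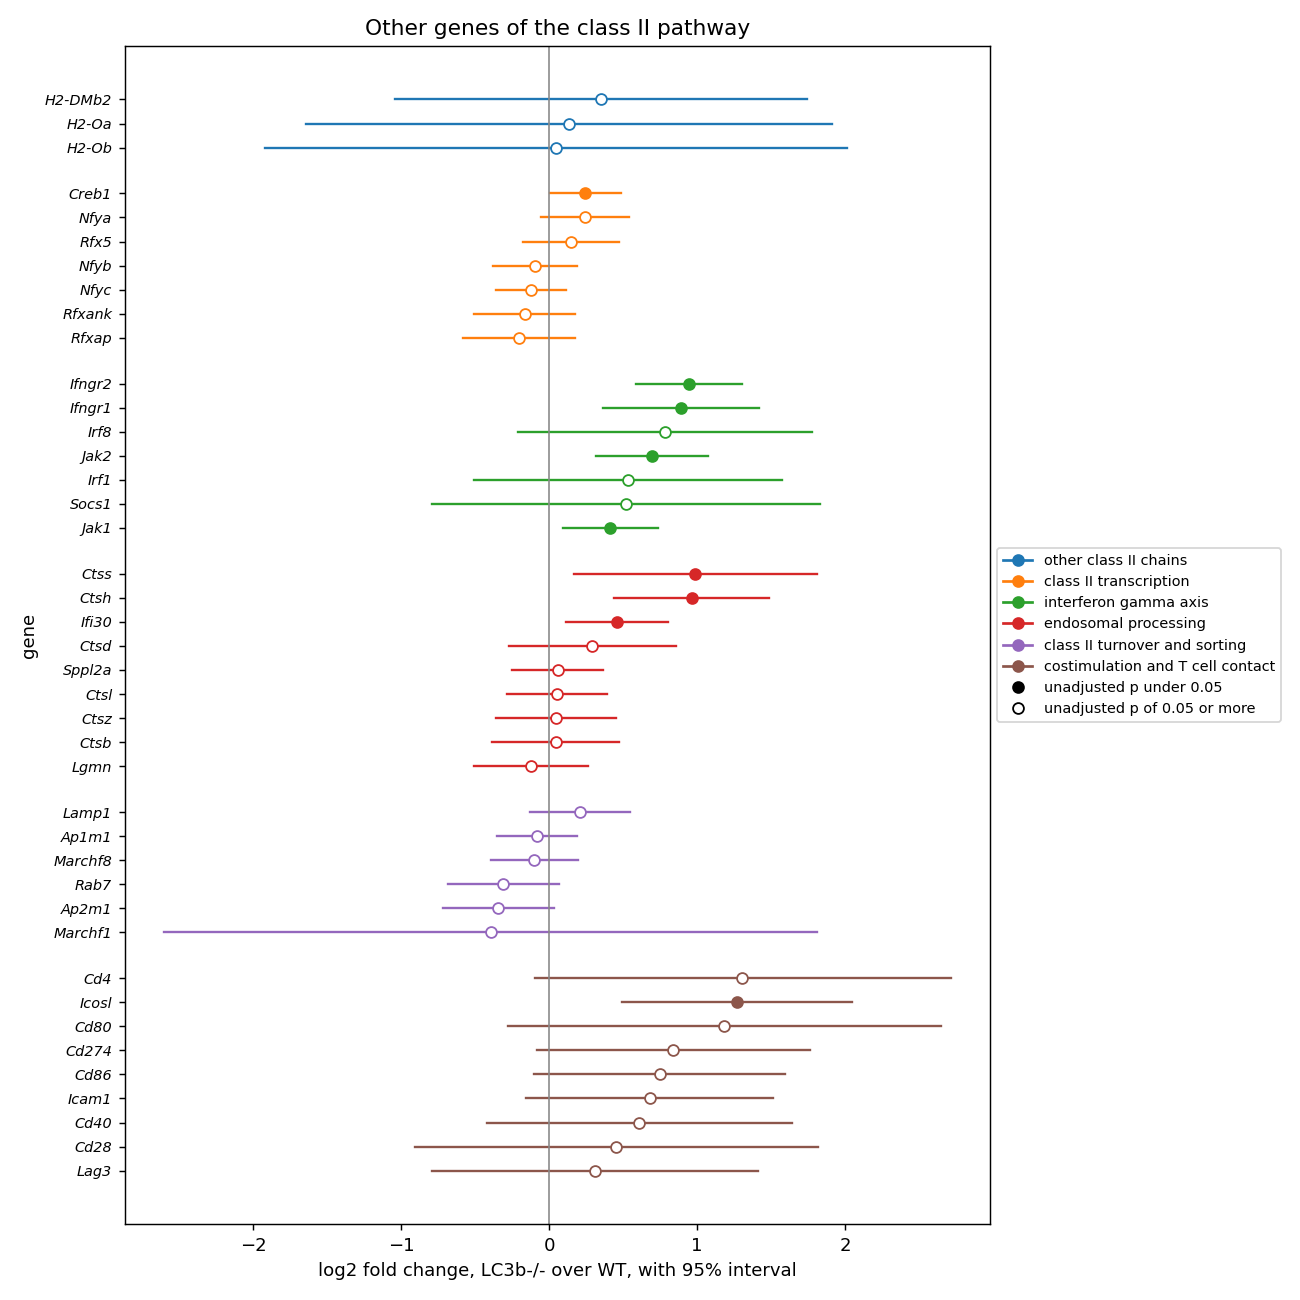
Log2 fold change of LC3b-/- over WT with its 95% interval (edgeR) for 41 of the 42 tested genes of the wider class II pathway, grouped by role, with filled points for an unadjusted p under 0.05. The 9 filled points are all above 0, and 4 of them belong to the interferon gamma axis.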

How the data were processed

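RNA of RPE cells was sequenced in 7 libraries (4 WT, 3 LC3b-/-), 1 per mouse, from a stranded mRNA kit. Per the study's methods, reads were quantified with salmon against GENCODE transcripts of GRCm39 and summed to genes with tximeta. The authors deposited counts per gene as whole numbers, not scaled for library size, with totals of 24495952 to 35616134. Options given to salmon are not given in the sources used here. All columns were used (0 unused). Of 52740 identifiers, 51721 matched the GENCODE annotation of the same build in hand. The others held 0.032% to 0.0436% of the counts.

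The counts were tested with edgeR 4.0.16 in R 4.3.3 (filterByExpr, TMM, quasi-likelihood test, Benjamini-Hochberg adjustment over 16990 genes), and differential expression meant an adjusted p under 0.05 and at least 1.5-fold. The study's methods use DESeq2, run here (1.42.0) as an alternative beside limma voom (3.58.1). Log2 CPM used a prior count of 2. Code was tested on simulated data in which 200 of 16612 genes were changed. There edgeR recovered 179 with 11 false calls, limma voom 176 with 11, and DESeq2 191 with 78. The planted changes were log2 fold changes of at least 2 either way, set only in genes above a fixed level. They were larger than the difference of any member, so recovery of changes as small as those of the members was not tested. BLAST 2.17.0 served to look for transcripts of other genes that match a member at 95% identity or more over 100 bases. No libraries were copies of each other (chi-square per degree of freedom of 69.5 to 240.4 between pairs of a group). Replicates are separate mice.

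The members and all gene lists were chosen with earlier results of these data known. Named are all 7 members, pathway genes with an unadjusted p under 0.05 plus *H2-Ea*, *H2-DMb2*, *Rfx5* and *Ctss*, *Map1lc3b*, marker sums with at most 3 defining markers per list, and the 10 genes of highest mean r with the members. A gene that the rule names whatever its values is not reported here. Alternatives changed the test, normalization, filter, covariate, pairing, libraries and threshold.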

Additional observations from a re-analysis of the deposited data

How the results depend on the processing

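All 7 class II genes stayed without a call and higher in LC3b-/- under every alternative that refitted the genes (16 for each gene, and 17 for *H2-DMb1*), with log2 fold changes between 0.02 (*H2-DMa*, females only) and 1.20 (*Ciita*, limma voom). Dropping the fold-change threshold gave 0 calls as well. Relative to the summed leukocyte markers, added after the data were seen, the mean log2 difference turned to −0.387 for *H2-DMa* and −0.475 for *H2-DMb1*, and the cause was not tested. Of the pathway genes, 0 were called in the edgeR fit, 5 by DESeq2, 1 by limma voom, 1 with sex as a covariate, and 0 to 3 when 1 library was left out (3 without WT F1, which were *Ifngr2*, *Jak2* and *Icosl*, and 1 without LC3b-/- M). *Ifngr2* was among those called by DESeq2, by limma voom, with sex as a covariate, without WT F1 and without LC3b-/- M. Of the marker genes, 15 were called by DESeq2, 1 with sex as a covariate, and 0 to 2 when 1 library was left out (2 without LC3b-/- M).

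Deviations of log2 CPM from the group mean had r of 0.146 between the F1 mice and 0.243 between the F3 mice of the genotypes. Between the males, of which that of LC3b-/- has no number, r was −0.172. The mouse number was taken as a name. With the number as a replicate block, and the males as a block, 0 members, 0 pathway genes and 0 marker genes were called. In all, 1 gene was called, and *H2-Ab1* and *Cd74* had unadjusted p under 0.05. Over all genes tested, edgeR called 40 with all libraries, 11 to 485 with 1 left out, 96 with females only, 197 with sex as a covariate, 78 without a filter on low counts, 124 with limma voom and 1831 with DESeq2. The cause of these spreads was not tested. The wide intervals of *Ciita* rest on 12 to 88 counts per library.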
